A study of Mus musculus with 7 samples.

Results

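The 9 genes described here carry the core of TGF-beta signalling: the ligands Tgfb1, Tgfb2 and Tgfb3, the receptors Tgfbr1 and Tgfbr2, the signal carriers Smad2, Smad3 and Smad4, and the inhibitor Smad7. The data were lists of accessible chromatin from ATAC-seq, which marks open DNA by the insertions of a transposase. A peak belonged to one of the 9 genes when that gene was the nearest protein-coding gene span to the peak's summit and lay within 50 kb of it. By that rule 203 of 126115 gene-linked peaks belonged to them in untreated cells, 251 of 141679 at day 1, 209 of 127142 at day 7 and 202 of 116497 at day 28. Merged across the lists, these peaks formed 308 regions of 193057 linked to a coding gene and 223972 in all.

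The libraries came from the pancreatic epithelium of C57BL/6J wild-type mice, with the cells purified from untreated animals or 1, 7 and 28 days after acute inflammation had been induced with caerulein, a peptide that overstimulates the enzyme-secreting acinar cells. Each of the 4 groups is 1 library, so no difference between times has a replicate check and none was tested. The labels do not say how many mice a library holds. The other 3 samples of the series, DCLK1-positive cells from Dclk1-DTR-ZsGreen mice, were not analysed here.

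TGF-beta is secreted in a latent form and, once released, binds the type II receptor, which then recruits and phosphorylates the type I receptor. The active type I receptor phosphorylates SMAD2 and SMAD3, which join SMAD4, enter the nucleus and bind DNA at short elements beside other transcription factors, and SMAD7 is induced as a feedback inhibitor that blocks the receptor. In the pancreas the pathway is known for its part in acinar-to-ductal conversion, in the activation of stellate cells and in fibrosis after injury.

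All 9 genes had a region in every list over their start or, for the 4 genes without a start in the tables used, over 1 gene end. The sequences just before 4 of those starts are shown because they are the fixed points for the other regions described below. Each is the 250 bases before the annotated start, from RefSeq on GRCm38, read 5′ to 3′ on the gene's strand, at chr7:25686752-25687001 (plus strand) for Tgfb1, chr4:47352972-47353221 (plus) for Tgfbr1, chr9:116175364-116175613 (minus) for Tgfbr2 and chr9:63757995-63758244 (minus) for Smad3. Capitals mark the GC box GGGCGG or the SMAD element CAGAC, each searched on both strands, and no match overlapped another.
Tgfb1: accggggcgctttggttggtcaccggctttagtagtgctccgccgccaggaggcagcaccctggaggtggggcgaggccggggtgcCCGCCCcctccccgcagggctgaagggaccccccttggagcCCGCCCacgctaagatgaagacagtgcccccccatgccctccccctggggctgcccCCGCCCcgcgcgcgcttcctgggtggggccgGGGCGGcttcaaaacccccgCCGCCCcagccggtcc
Tgfbr1: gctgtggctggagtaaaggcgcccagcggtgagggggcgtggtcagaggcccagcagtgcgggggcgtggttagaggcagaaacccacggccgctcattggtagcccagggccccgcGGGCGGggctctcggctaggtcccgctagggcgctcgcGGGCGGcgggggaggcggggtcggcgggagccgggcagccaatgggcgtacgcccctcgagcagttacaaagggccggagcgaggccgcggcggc
Tgfbr2: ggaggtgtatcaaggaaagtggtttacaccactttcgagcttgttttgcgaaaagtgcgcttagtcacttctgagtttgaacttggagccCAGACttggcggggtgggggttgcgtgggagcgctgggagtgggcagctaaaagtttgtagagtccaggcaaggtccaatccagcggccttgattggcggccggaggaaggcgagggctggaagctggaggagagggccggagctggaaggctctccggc
Smad3: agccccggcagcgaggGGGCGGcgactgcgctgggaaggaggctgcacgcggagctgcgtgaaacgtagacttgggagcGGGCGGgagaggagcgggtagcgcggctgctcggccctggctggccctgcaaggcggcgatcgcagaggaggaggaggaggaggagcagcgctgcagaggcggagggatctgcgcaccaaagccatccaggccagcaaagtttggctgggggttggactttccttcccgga
The GC box, a motif bound by SP-family factors, was found 5 times before Tgfb1, 2 times before the first start of Tgfbr1 and 2 times before Smad3, and 32.7% of 32851 mouse promoter windows of this length held it. CAGAC was found 1 time before Tgfbr2 and 2 times before Tgfb2, against 42.2% of all windows with at least 1. The AP-1 motif TGANTCA was in none of these windows and in 6.75% of all of them. GC content was 75.2% for Tgfb1, 74.8% for Tgfbr1, 69.2% for Smad3, 58.4% for Tgfbr2 and 53.6% for Tgfb2, where the median window had 52.4%. These matches describe letters only.

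The 4 lists were not equally sensitive. Background pileups recovered from the authors' values were 5.07, 5.35, 2.72 and 2.52 for untreated, day 1, day 7 and day 28 in that order, and the lowest listed fold enrichments were 2.47, 2.36, 2.95 and 2.84. In regions shared by all lists the median enrichment above background was 7.40, 16.6, 15.1 and 11.5, so a weak region was harder to list in untreated cells than at day 1. Fold values below are the authors' own, the summit's pileup over background, and values from different lists stand side by side without being a measure of change. Marker genes of acinar cells had 128 peaks in untreated cells, 29 at day 1, 69 at day 7 and 134 at day 28, with Cel and Gp2 at 0 at day 1. In such bulk libraries fewer cells of a type and less open chromatin per cell cannot be told apart.

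In number, peak counts differed most between lists at Tgfb2 and Tgfbr2. Tgfb2 had 18 peaks untreated, 38 at day 1, 27 at day 7 and 18 at day 28. Tgfbr2 had 21, 40, 32 and 18. Both counts were highest at day 1 and were back at or below the untreated count at day 28. With each list held to a floor scaled to its own enrichment, a setting chosen after the data had been seen, Tgfb2 had 18, 20, 25 and 18 peaks, highest at day 7, and Tgfbr2 21, 27, 26 and 18. Smad3 had by far the most peaks of the 9 in each list, at 90, 80, 81 and 82, and Smad7 had 41, 46, 32 and 39. The smaller counts were 6, 4, 5 and 7 for Tgfb1, 6, 5, 5 and 6 for Tgfb3, 4, 10, 11 and 11 for Tgfbr1, 5, 10, 4 and 5 for Smad2 and 12, 18, 12 and 16 for Smad4. A coding gene with any peak had a median of 4 in each list.

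**Figure D1:**
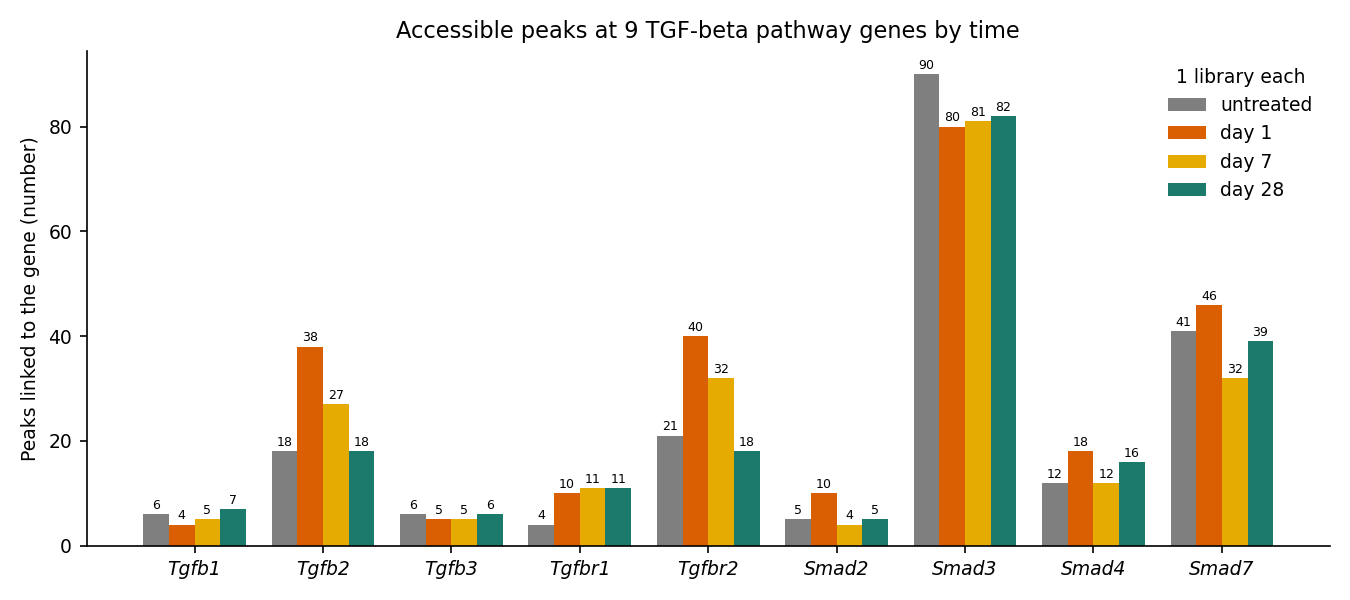
Number of peaks linked to each of the 9 genes (vertical axis) in the untreated, day 1, day 7 and day 28 lists, 1 library each. Tgfb2 and Tgfbr2 stand at 38 and 40 peaks at day 1 and at 18 each at day 28, and Smad3 has between 80 and 90 in every list.

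Peaks at fibroblast and stellate cell marker genes were also most numerous at day 1. The 10 genes of that list had 115 peaks untreated, 226 at day 1, 179 at day 7 and 135 at day 28, with Lum at 0 in untreated cells. All 10 had peaks at each later time. Of the 226, 153 overlapped no untreated peak, or 67.7%, against 49.9% of all gene-linked day 1 peaks. Not every gene of the list rose at day 1, since Col1a1 had 23, 23, 23 and 21 peaks and Pdgfrb 21, 19, 25 and 19. Among leukocyte marker genes, Ptprc had 4, 10, 4 and 2 peaks and Csf1r 2, 11, 6 and 2, while Adgre1 was at 0 in all lists and Cd3e and Lyz2 were at 0 untreated and at day 1. Epithelial markers had 96, 45, 81 and 87, ductal markers 70, 51, 65 and 61 and endothelial markers 123, 110, 126 and 80. The part of other cell types in the counts at Tgfb2, Tgfbr2 and the other genes was not tested.

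A peak was counted as gained when it overlapped no untreated peak, and an untreated peak as lost when it overlapped no peak of the later list. At day 1, 125 of 251 peaks of the 9 genes were gained, or 49.8% (exact 95% interval 43.5 to 56.2, counting error only), against 49.9% of all gene-linked peaks. At day 7 the gained count was 65 of 209, or 31.1% (24.9 to 37.9), against 33.9%, and at day 28 it was 48 of 202, or 23.8% (18.1 to 30.2), against 23%. As a group, then, the 9 genes gained peaks at a rate near that of all genes at each time. Smad3 held 80 of the 251 day 1 peaks and 81 of the 209 day 7 peaks, with 28.8% and 14.8% gained. These pooled shares therefore rest heavily on 1 gene with a low share. Losses were fewer than over all genes at day 1, where 55 of 203 untreated peaks, or 27.1% (21.1 to 33.8), were lost against 37.1%. They were 51, or 25.1% (19.3 to 31.7), against 31.8% at day 7, and 49, or 24.1% (18.4 to 30.6), against 26.7% at day 28. With the scaled floors the day 1 counts of gained and lost turned from 125 and 55 to 55 and 67. The shares were then 34.4% gained against 39.1% of all gene-linked peaks and 33.0% lost against 44.7%, so the counts over all genes turned too.

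Gained peaks were mostly weak, as they were over all genes. The 125 gained at day 1 had a median fold of 3.94, against 4.41 over all gene-linked gained peaks, and the other 126 day 1 peaks of these genes had a median of 12.2. The strongest gained peak reached 25.8. Of the 125, 75 lay inside a gene span. The lost peaks were weak too, with a median untreated fold of 3.79 at day 1.

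**Figure D2:**
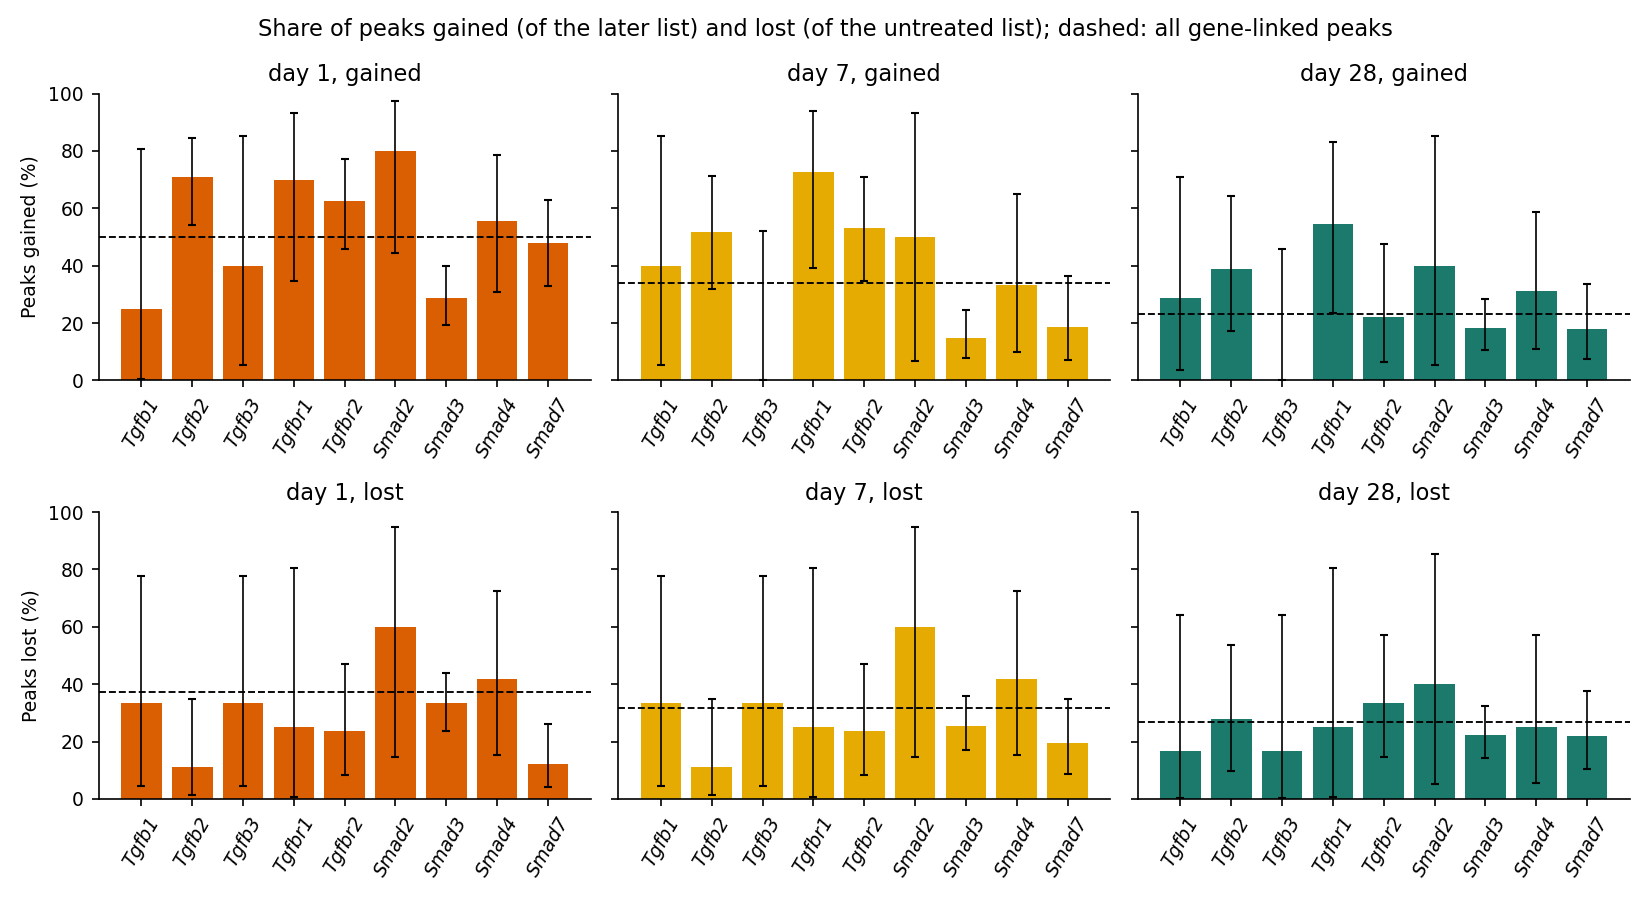
Percent of each gene's later peaks that were gained (top row) and of its untreated peaks that were lost (bottom row) at days 1, 7 and 28, with exact 95% binomial intervals as bars and the share over all gene-linked peaks as a dashed line. At day 1 Tgfb2 stands at 71.1% gained and Smad3 at 28.8%, on either side of the dashed 49.9%.

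Among the ligands, Tgfb2 was the gene whose peak count differed most with time. Its span lies at chr1:186622787-186709697. At day 1, 27 of its 38 peaks were gained, or 71.1% (54.1 to 84.6), against 49.9% of all gene-linked peaks. Of its 18 untreated peaks 2 were lost at day 1, or 11.1% (1.4 to 34.7), against 37.1%. At day 7, 14 of 27 were gained, or 51.9% (31.9 to 71.3), against 33.9% of all gene-linked peaks. At day 28 it was 7 of 18, or 38.9% (17.3 to 64.3), against 23%. The intervals at days 7 and 28 both include the background. Of the 27 gained at day 1, 8 overlapped a day 7 peak and 4 a day 28 peak. Over all linked peaks gained at day 1 the shares were 36.9% and 14.5%. Across genes with at least 10 peaks the median share gained at day 1 was 52.9%, with quartiles of 38.1 and 66.7, so Tgfb2 was above the upper quartile. Of its 27 merged regions that were new at day 1, 18 lay within 40 kb downstream of the start, as the map of Tgfb2 and Tgfbr2 shows. How many of all 44 Tgfb2 regions lay there was not counted, so the number does not show clustering of the new ones. With the scaled floors 9 of 20 day 1 peaks (45%) were gained, against 39.1% of all gene-linked peaks at those floors.

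The region over the Tgfb2 start was listed at 30.3 fold in untreated cells, 85.2 at day 1, 61.8 at day 7 and 56.2 at day 28. A region inside the gene, chr1:186675163-186677130, 29904 bp downstream of the start, stood at 4.61, 53.6, 22.3 and 10.5. Its day 1 value was the second highest inside the span, after the start. Another at chr1:186586723-186587757, 35569 bp past the gene's far end and over the start of the non-coding gene Gm35546, stood at 10.4, 59.7, 26.9 and 12.8. In each of these regions the day 1 value was the highest of the 4 and the untreated value the lowest. Further regions had no untreated peak at all and were present at all 3 later times, among them chr1:186665153-186665906 at 23.6, 7.79 and 3.69 and chr1:186581184-186582459 at 21.4, 7.52 and 6.24.

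Tgfb1, the isoform made by most cell types, had few regions. Of its 8 merged regions, 3 were present in all lists and held the high values, and the other 5 were weak and listed at some times only. The start region of the gene (chr7:25687002-25705077) was listed at 45.6, 77.2, 71.5 and 81.2. Just past the far end of the gene lay a pair of neighbouring regions with opposite order. The region chr7:25705634-25706440 stood at 62.6 in untreated cells, 27.3 at day 1, 33.6 at day 7 and 71.2 at day 28, lowest at day 1. The next region, chr7:25706597-25708618, stood at 13.3, 121, 55.3 and 18.2, highest at day 1. The order between the pair reversed within the lists, since the first was higher in the untreated and day 28 lists and the second at days 1 and 7. The summit of the second lay 2654 bp from the span of Tgfb1 and 3381 bp from that of Ccdc97, so its link to Tgfb1 is the nearer of a close pair.

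Tgfb3 had 7 merged regions (chr12:86056743-86079041). The one at its high-coordinate end was listed at 47.8, 70.3, 76.8 and 63.9. The other end had a region at 8.40, 18.4, 26.1 and 14.8, highest at day 7. No Tgfb3 peak was gained at day 7 or day 28, of 5 and 6 peaks, against 33.9% and 23% of all gene-linked peaks. With so few peaks the upper bounds were 52.2% and 45.9%, so both intervals include the background. A region inside the gene stood at 5.77 untreated, was not listed at day 1, and returned at 3.49 and 11.1.

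Tgfbr2 encodes the receptor that binds the ligand first. The span is chr9:116087695-116175363, on the minus strand. At day 1, 25 of 40 peaks were gained, or 62.5% (45.8 to 77.3). At day 7 it was 17 of 32, or 53.1% (34.7 to 70.9), against 33.9% of all gene-linked peaks. At day 28 it was 4 of 18, or 22.2% (6.4 to 47.6), against 23%. Of the 25 gained at day 1, 10 overlapped a day 7 peak and 2 a day 28 peak. Over all linked peaks gained at day 1 the shares were 36.9% and 14.5%. With the scaled floors 14 of 27 day 1 peaks (51.9%) were gained, against 39.1% of all gene-linked peaks. The interval of the day 1 share without that floor includes the background of 49.9%.

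Tgfbr2 held 10 of the 20 regions of these genes that were present at days 1 and 7 and in neither other list. The strongest was chr9:116160643-116161439, 14346 bp downstream of the start, at 25.8 fold at day 1 and 8.06 at day 7. The next, chr9:116087083-116087675, just past the far end of the gene, stood at 18.3 and 6.45. Over all genes this class was 8.6% of merged regions, and over the 9 genes 6.49%. Tgfbr2 had none of the regions that were absent from untreated cells and listed at all 3 later times.

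The strongest Tgfbr2 region away from the start was chr9:116152324-116154121, inside the gene and 22251 bp downstream of the start. Its pileup was 90 untreated, 707 at day 1, 303 at day 7 and 99 at day 28. Its fold was 15.0, 112, 81.7 and 28.4. The start region was listed at 41.5, 89.8, 86.0 and 63.6. At day 1 the internal region was the highest of all Tgfbr2 regions, above the start.

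**Figure D3:**
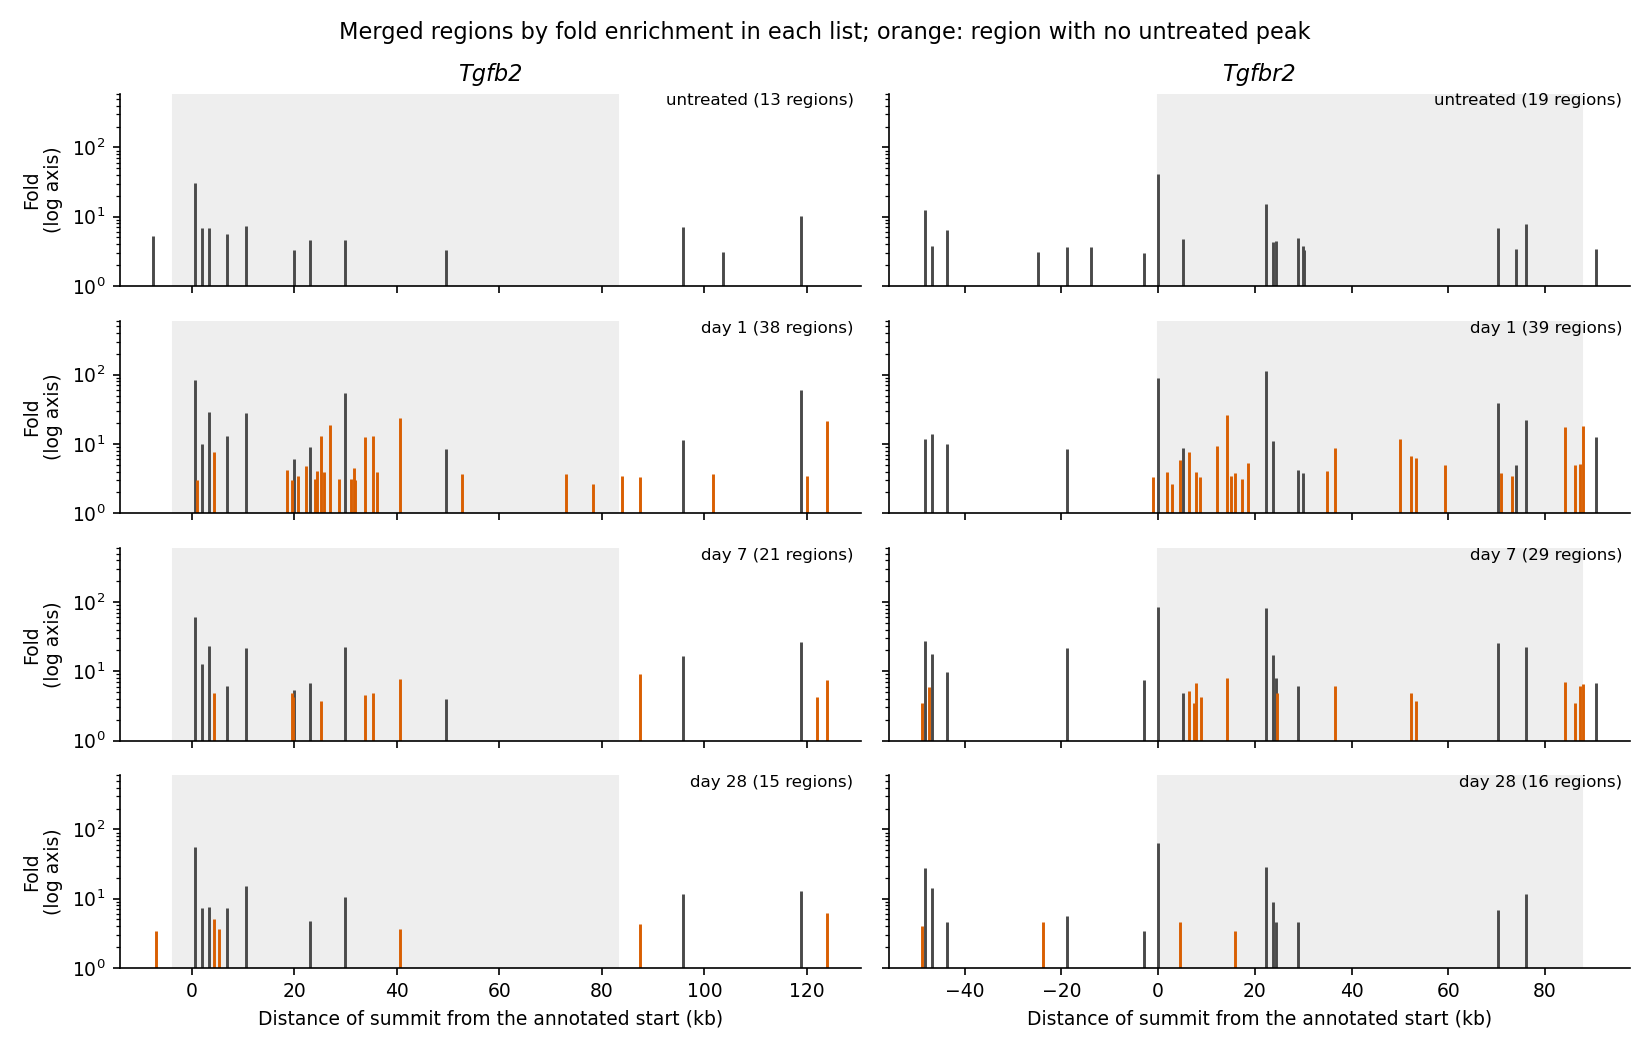
Fold enrichment (vertical log axis) of each merged region of Tgfb2 (left) and Tgfbr2 (right) against the distance of its summit from the annotated start in kb, 1 row per list, with the gene span shaded and regions without an untreated peak in orange. Tgfb2 shows 13 regions untreated, 38 at day 1, 21 at day 7 and 15 at day 28, where Tgfbr2 shows 19, 39, 29 and 16, with the orange lines thinning out again by day 28.

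Tgfbr1, the type I receptor kinase (chr4:47353222-47414926), had more peaks at each later time than untreated. It had 4 peaks untreated and 10, 11 and 11 later. Of the later peaks 7 of 10 were gained at day 1, or 70% (34.8 to 93.3), against 49.9% of all gene-linked peaks. At day 7 it was 8 of 11, or 72.7% (39.0 to 94.0), against 33.9%. At day 28 it was 6 of 11, or 54.5% (23.4 to 83.3), against 23%. The counts are small and the lower bound at day 28 is next to the background. The 7 gained at day 1 became 0 with summits inside the span only and 2 with the nearest gene of any type. The 8 at day 7 became 2 and 4. The 6 at day 28 became 2 and 1 under those settings and 3 with a −log10 q of at least 5. Its day 28 peaks formed 7 merged regions, 3 of them shared with untreated cells, so part of the count comes from several peaks within a region.

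The Tgfbr1 start region was listed at 101, 91.9, 124 and 137, and was among the strongest of the 9 genes. The second annotated start, at position 47386216, had no peak over it in any list. Apart from the start, the strongest regions formed a cluster past the gene's far end. The region chr4:47440876-47441450, 26241 bp past it, stood at 3.79, 38.3, 15.3 and 6.81, highest at day 1. Its summit lay 28666 bp from the coding gene Alg2 and 12388 bp from the pseudogene Gm12430. Its link to Tgfbr1 is thus the nearer of a close pair of coding genes. Within the same cluster chr4:47435595-47436690 had no untreated peak and stood at 24.1, 8.06 and 4.26 later, and chr4:47436989-47438497 stood at 10.9, 16.5, 18.3 and 16.2.

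Smad3, the DNA-binding signal carrier, already had many peaks in untreated cells, and the share of its peaks gained at days 1 and 7 was low. In number its 23 gains at day 1 were close to the 27 of Tgfb2 and the 25 of Tgfbr2. Its span is chr9:63646766-63757994 on the minus strand. In untreated cells it had 55.4 peaks per 100 kb of the stretch assigned to it, where Smad7 had 47.5 and the other 7 genes between 3.0 and 28.2. At day 1, 23 of 80 peaks were gained, or 28.8% (19.2 to 39.95), and 30 of 90 untreated peaks were lost, or 33.3% (23.7 to 44.1). At day 7, 12 of 81 were gained, or 14.8% (7.9 to 24.4). At day 28 it was 15 of 82, or 18.3% (10.6 to 28.4), against 23% of all gene-linked peaks. With an overlap of at least 1 bp, the shares gained at days 1 and 7 were below the background of 49.9% and 33.9% by more than counting error. With an overlap of at least 50% the 23 and 12 became 38 and 20, and the background at that setting is not given here. The 23 became 15 with a −log10 q of at least 5 and with the nearest gene of any type. The 12 became 6 with merged regions counted. With the scaled floors 8 of 53 day 1 peaks (15.1%) were gained, against 39.1% of all gene-linked peaks, and 36 of 90 untreated peaks lost, against 44.7% of all. Of its 97 merged regions, 39 were present in all lists.

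Which Smad3 regions were strongest differed between lists. The start region was listed at 109 untreated, 73.3 at day 1, 121 at day 7 and 168 at day 28, lowest at day 1. Inside the gene, chr9:63715691-63717397, 41684 bp downstream, stood at 21.3, 105, 86.5 and 50.8, with pileups of 128, 668, 321 and 178. Another internal region, chr9:63742196-63744338, stood at 7.08, 79.4, 35.2 and 15.3, and chr9:63674403-63675214 at 12.2, 86.8, 54.8 and 25.0. In these internal regions the day 1 value was the highest, and 5 further Smad3 regions inside the gene stood between 66.2 and 86.2 at day 1. The reverse order was seen in weaker regions, 1 inside the gene 5233 bp downstream of the start and 1 outside the span, 17035 bp upstream. Both stood at 14.3 fold in untreated cells and had no day 1 peak. They were listed again at day 7, at 8.33 and 6.18, and at day 28, at 20.7 and 13.9. In addition 7 Smad3 regions were present in untreated and day 28 cells only.

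**Figure D4:**
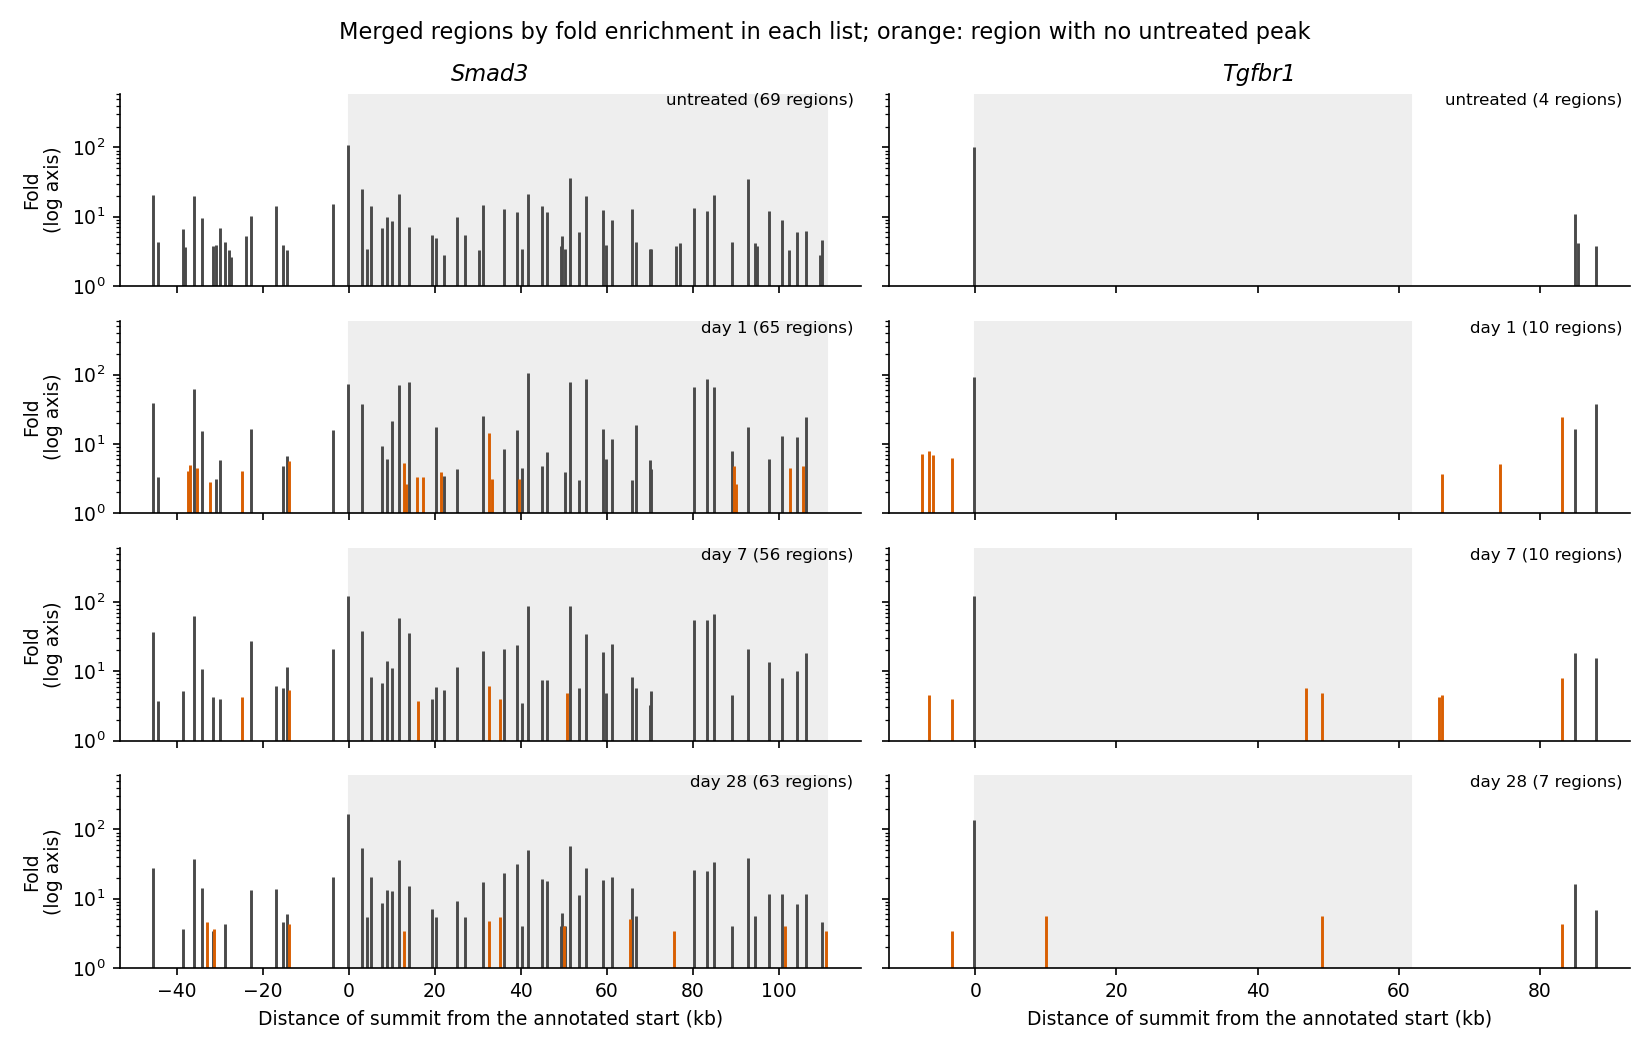
Fold enrichment (vertical log axis) of each merged region of Smad3 (left) and Tgfbr1 (right) against the distance of its summit from the annotated start in kb, 1 row per list, with the gene span shaded and regions without an untreated peak in orange. Smad3 has 69, 65, 56 and 63 regions and few tall orange lines, and Tgfbr1 has 4, 10, 10 and 7 with its strongest regions other than the start beyond the far end of the gene.

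Smad2 and Smad4 had few strong regions beyond their own ends. Smad2, the other receptor-activated carrier (chr18:76241090-76311748), was listed at its low-coordinate end at 86.0, 94.9, 113 and 151. Of its 10 day 1 peaks 8 were gained, or 80% (44.4 to 97.5), against 49.9% of all gene-linked peaks. Of the 8, 1 overlapped a day 7 peak and 2 a day 28 peak. Over all linked peaks gained at day 1 the shares were 36.9% and 14.5%. The 8 became 4 with a −log10 q of at least 5 and also with the common fold floor. They became 3 with links within 10 kb and with the scaled floors, and 2 with summits inside the span only. The strongest of the 8, 17529 bp outside the span, stood at 22.1, 5.64 and 4.83 at the later times. Smad4, the partner common to all receptor-activated SMADs (chr18:73634790-73703791), was listed at its high-coordinate end at 44.2, 55.3, 65.0 and 80.9. A region 11574 bp outside its span stood at 30.5, 40.3, 41.6 and 33.5, a narrow range beside the regions named above. At day 1, 10 of its 18 peaks were gained and 5 of its 12 untreated peaks lost, near the background on both counts.

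Smad7, the feedback inhibitor (chr18:75367365-75395935), kept most of its untreated peaks. At day 1, 5 of 41 were lost, or 12.2% (4.1 to 26.2), against the background of 37.1%. The losses were 8, or 19.5% (8.8 to 34.9), against 31.8% at day 7. At day 28 they were 9, or 22.0% (10.6 to 37.6), against 26.7%, and both later intervals include the background. The 5 became 8 with an overlap of at least 50% and with the scaled floors. They became 3 with a −log10 q of at least 5. With summits inside the span only and with the nearest gene of any type they became 2. Gains were 22 of 46 at day 1, or 47.8% (32.9 to 63.1), against 49.9%. At days 7 and 28 they were 6 of 32 and 7 of 39, or 18.8% and 17.9%, against 33.9% and 23%. Of the 22, 4 overlapped a day 7 peak and 4 a day 28 peak, where the shares over all linked gains were 36.9% and 14.5%. The 22 became 9 of 28 with the scaled floors, 13 with links within 10 kb, and 5 both with summits inside the span only and with the nearest gene of any type. The region at the gene's low end stood at 58.2, 72.8, 72.8 and 88.0. A region 24350 bp outside the span, chr18:75341643-75344009, was as strong, at 66.7, 68.4, 104 and 103, and was the highest Smad7 region in the untreated, day 7 and day 28 lists.

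Around that pair, other Smad7 regions were higher at day 1 or missing from it. Regions 4049 and 9868 bp from the span stood at 13.8, 71.9, 56.4 and 25.3 and at 11.04, 60.3, 35.7 and 20.7. A region 13571 bp away stood at 3.62 untreated, 48.7 at day 1 and 10.5 at day 7 and was not listed at day 28. In the opposite direction, chr18:75357741-75358543 stood at 34.6 in untreated cells, had no day 1 peak, and was listed at 13.4 and 24.1 at days 7 and 28. This was the strongest untreated peak of the 9 genes to be lost at day 1.

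Followed over time, most gains at day 1 were not seen later. Of the 125, 36 overlapped a day 7 peak, or 28.8% (21.1 to 37.6), against 36.9% of all linked peaks gained at day 1. A day 28 peak was overlapped by 22, or 17.6% (11.4 to 25.4), against 14.5%. Among the 308 merged regions, 81 were present at day 1 only, or 26.3% against 21.9% of all linked regions, and these had a median fold of 3.94, the same as over all linked regions of this class. Of the 81, 25 were above the scaled floor, where 17401 of all 42281 linked regions of this class were. Tgfb2 held 19 of the 81, Smad7 17, Smad3 14 and Tgfbr2 13. A region was present in all lists in 89 cases (28.9% against 28%), in untreated cells only in 26 (8.44% against 10.7%) and in every list but day 1 in 9 (2.92% against 4.91%). Regions present in untreated and day 28 cells only numbered 12 (3.90% against 5.38%).

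The regions that were absent from untreated cells and present at all 3 later times numbered 13, or 4.22% against 3.65% of all linked regions. They belonged to Tgfb2 (4), Smad7 (3), Tgfbr1 (2), Smad3 (2), Smad2 and Smad4, and none to Tgfb1, Tgfb3 or Tgfbr2. In day 28 cells their folds were between 3.41 and 6.24, close to the lowest listed fold of 2.84. The highest day 1 values among them were 24.1 at Tgfbr1, 23.6 at Tgfb2, 22.1 at Smad2 and 21.4 at Tgfb2. All but 1 of the 13 were also above the scaled floors in all 3 later lists, where 5397 of all 7046 linked regions of this class were.

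A comparison within a list sets no fold against that of another list, and the one given here was chosen after the values had been seen. For the 5 genes with an annotated start and strand, the pileup of the strongest region away from any annotated start was divided by that of the start region of the same list. For Tgfbr2 the ratio was 0.359 (exact 95% interval 0.279 to 0.458) untreated, 1.24 (1.11 to 1.39) at day 1, 0.95 (0.809 to 1.12) at day 7 and 0.444 (0.347 to 0.565) at day 28. For Smad3 it was 0.333 (0.285 to 0.389), 1.44 (1.28 to 1.62), 0.714 (0.617 to 0.826) and 0.336 (0.285 to 0.395). The strongest region was picked in each list, and in Smad3 it was not the same one throughout. For the region that led at day 1, chr9:63715691-63717397, the ratios were 0.194, 1.44, 0.712 and 0.301. In both genes the start was the stronger site in untreated and day 28 cells and an internal region the stronger at day 1. The intervals hold counting error within a library alone, leave out the choice of the strongest region, and are no test between times.

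Tgfb2 and Tgfbr1 had their highest ratio at day 1 too, but the start stayed above. The ratio was 0.235, 0.628, 0.371 and 0.264 for Tgfb2 and 0.106, 0.416, 0.146 and 0.116 for Tgfbr1. Tgfb1 was at 1.37 and 1.57 in the untreated and day 1 lists and at 0.774 and 0.877 at days 7 and 28, with the region just past its end that led untreated cells giving way to its neighbour at day 1. The same turn was seen in many genes. Over 6740 genes the median ratio was 0.366, 0.550, 0.380 and 0.324, and 1054 genes (15.6%) had a start that was stronger in untreated cells and weaker at day 1.

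**Figure D5:**
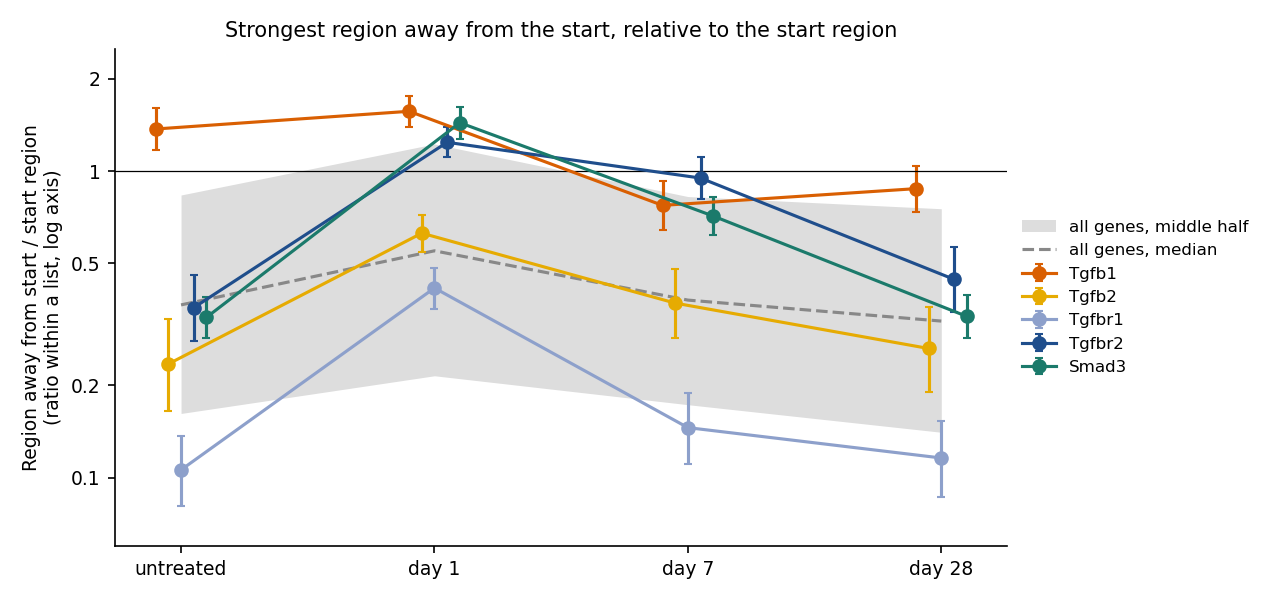
Ratio of the strongest region away from the start to the start region within each list (vertical log axis; line at 1 marks equal pileups) for 5 genes, with exact 95% intervals, and the median and quartile range over 6740 genes in grey. Tgfbr2 and Smad3 lie below 1 untreated and at day 28 and above it at day 1, at 1.24 and 1.44.

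The wider pathway was described with 57 other genes in 7 lists by role. Together they had 993, 1189, 1040 and 933 peaks, of which 51.0% were gained at day 1, 36.5% at day 7 and 23.8% at day 28. Of their untreated peaks 27.5% were lost at day 1. Over all gene-linked peaks 49.9% were gained and 37.1% lost at day 1, and in several of the lists 1 or 2 genes held a large part of the count. The latency and activation genes gained 146 of 257 peaks at day 1 (56.8%, 50.5 to 63.0) and lost 32 of 188 (17.0%). Ltbp1, which anchors latent TGF-beta in the matrix, held 66 of those gains and had 34, 91, 45 and 30 peaks. The co-receptors gained 74 of 126 (58.7%), of which 53 were at the betaglycan gene Tgfbr3, with 57, 93, 72 and 54 peaks. Target genes gained 158 of 281 (56.2%) and lost 32 of 179 (17.9%), and the transcription factors Zeb1 and Zeb2 held 40 and 43 of those gains, of 52 and 65 day 1 peaks.

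Activin and BMP ligands lost 30 of 71 untreated peaks at day 1 (42.3%, 30.6 to 54.6) and their receptors 53 of 121 (43.8%, 34.8 to 53.1). Both intervals include the background of 37.1%. Bmp7 accounted for 23 of the 30, of its 37 untreated peaks, and the BMP receptor gene Bmpr1b for 23 of the 53, of its 29. The other SMAD genes gained 25 of 91 (27.5%, 18.6 to 37.8) and lost 38 of 106 (35.8%, 26.8 to 45.7). In that list Smad6, the inhibitor of the BMP arm, gained 5 of 41 and lost 19 of 60. Smad1 gained 12 of 29, Smad5 7 of 14 and Smad9 1 of 7, so the low share of the list came mostly from Smad6. The SMAD partners and regulators gained 110 of 249 (44.2%) and lost 77 of 252 (30.6%), with 41 of the losses at Nedd4l, a ubiquitin ligase that acts on SMADs and the receptor.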

How the data were processed

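ATAC-seq peak lists of 4 samples were used, 1 per group, with groups taken from sample titles. Per the submitters' processing notes, MACS2 2.1.0.20150731, Bowtie2 2.2.6, cutadapt, deepTools and SAMtools were used with GRCm38 (mm10). Not given in the sources used here were options, read filters and any correction for the transposase's cut position. In each file the authors' fold enrichment is a ratio of the summit's pileup to background. The deposited −log10 p and −log10 q give each peak's significance, and the authors' score equals 10 times the −log10 q. The summit offset is also as deposited.

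From fold taken as pileup plus 1 over background plus 1, 100% of pileups came out whole within 0.05 in each list. Lists cover the 19 autosomes and X, with between 6 and 11 chromosome Y peaks left out per list. Gene spans and starts came from the RefSeq table of GRCm38.p6. Of the 9 genes, 5 matched the promoter sequence table. Summits were linked within 50 kb and overlap meant at least 1 bp. A merged region took the gene of its summit with the highest fold. Intervals of shares are exact 95% intervals (Clopper-Pearson) and hold counting error alone. No test was possible with 1 library per group. Overlap, merging and linking were tested on simulated data.

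Named were all 9 genes, their strongest regions in each list, the regions at their starts and the strongest of each pattern over time, plus the pathway genes with most gained or lost peaks. Other regions in the text were chosen after their values had been seen. The sum over the leukocyte marker list is not reported here. The genes and lists were chosen with earlier results of these data known. Alternatives were an overlap of 50%, a −log10 q of at least 5, a common fold floor, links within 10 kb or inside the span only, genes of any type, merged regions, and scaled floors; the last 2 were added after the data had been seen. Python 3.11.15 with pandas 2.3.3 and scipy 1.17.1 was used.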

Additional observations from a re-analysis of the deposited data

How the results depend on the processing

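With 1 library per group and peaks called separately, every count depends on each list's floor, and no value has a replicate error. Counting only summits inside gene spans left 160 day 1 peaks, 75, 43 and 31 gained at days 1, 7 and 28, 36 and 27 lost at days 1 and 28, and 13 day 1 gains seen at day 28. Linking to the nearest gene of any type gave 31 gained and 27 lost at day 28 and 13 day 1 gains seen at day 28. A −log10 q of at least 5 gave 23 gained and 28 lost at day 28. The scaled floors, folds of 2.47, 4.31, 4.00 and 3.28, left 160 day 1 peaks with 55 gained, 14 of them seen at day 28, and 34.4% gained against 39.1% of all gene-linked peaks. All other group counts stayed within 1.5 times under these settings, as did all 11 under the common fold floor of 2.95, links within 10 kb, merged regions and an overlap of 50%. No paired analysis was possible because each group is 1 library and nothing was tested. Weak regions at a few times the background pileup could not be told from regions just under the floor at this depth.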
